A study of Mus musculus with 3 samples.

Results

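The 8 connexin genes Gjb6, Gjb2, Gjb1, Gja1, Gja4, Gja5, Gjc1 and Gjc3 and the pannexin gene Panx1 were followed in the transcriptome of isolated mouse brain vessels. They were taken by name from 29917 genes with a named transcript, and each gene was represented by its transcript with the most counts. All 9 genes had at least 50 normalized counts (raw counts divided by a size factor of the library) in each of the 3 libraries. Every library was made from the brain vessels of 3 male mice of 3 months, pooled, with polyA RNA read in single reads of 50 bases, and held 20143253 to 24164505 counts over the transcripts chosen in this way. The first library came from C57BL6 WT mice and the second from WT mice of the mixed C57BL6/Balbc background. The third came from Cx30Δ/Δ mice, in which Gjb6, the gene of connexin 30 (Cx30), is deleted in all tissues (Cx30-/- in the labels), so that the loss is not limited to vessels or astrocytes. Where 3 values follow each other, they stand for the libraries in this sequence, and of 2 log2 ratios the first is relative to C57BL6 WT. The labels place the Cx30Δ/Δ mice on C57BL6, while the study's methods place them on C57BL6/Balbc. With this unsettled, background and deletion cannot be told apart in the comparison with either WT library. With 1 library per group there was no replicate check. Differences are therefore given as log2 ratios of normalized counts with a 95% interval (exact binomial) that covers read sampling only, and a gene was counted as past the threshold at a ratio of at least 2-fold either way. Both comparisons with WT share the Cx30Δ/Δ library and are not independent.

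Connexins are membrane proteins that build the hexameric hemichannels of gap junctions. A gap junction joins the cytoplasm of adjacent cells, so that they are coupled electrically and metabolically. Pannexins have a similar membrane topology but work mainly as single-membrane channels that release ATP. In the brain each cell type has its own set. Astrocytes use Cx43 (Gja1) and Cx30 (Gjb6), which are enriched in the endfeet around vessels, with Cx26 (Gjb2) in some astrocytes and in meningeal cells. Arterial endothelium uses Cx37 (Gja4) and Cx40 (Gja5), mural cells use Cx45 (Gjc1), and oligodendrocytes use Cx32 (Gjb1) and Cx29 (Gjc3), among others.

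The preparation is described as endothelial cells, smooth muscle cells and pericytes with few astrocyte fibres. In the libraries, the summed normalized counts of 8 endothelial markers ranged from 63110 to 135300, of 6 smooth muscle markers from 40210 to 59440 and of 6 pericyte markers from 40110 to 68170. Markers of cells outside the vessel wall were also present, with 34340 to 43050 for 8 astrocyte genes, 42120 to 53320 for 8 oligodendrocyte genes, 28140 to 48540 for 8 neuronal genes and 59160 to 147700 for 6 genes of ependyma and choroid plexus (6234 to 10010 without Ttr, which made up 88.6% to 93.2% of that sum), and no gene of these lists was at 0 in any library. In such bulk RNA, fewer cells of a type and less RNA per cell cannot be told apart.

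The order of the levels was the same in both WT libraries. Per kilobase of transcript, Gja1 came first with 1460 normalized counts in C57BL6 WT and 1500 in C57BL6/Balbc WT, and Gjb6 came next with 1440 and 1380. Gja4 followed with 1230 and 943, and then Gjc1 with 618 and 534. Gjb2 (460 and 373), Gjc3 (307 and 324) and Gja5 (221 and 236) formed a middle group, and Panx1 (124 and 106) and Gjb1 (98.6 and 87.9) were the lowest. The neighbours Gja1 and Gjb6, Gjb6 and Gja4, and Gjb2 and Gjc3 were closer in at least one WT library than a gene of the pair was to itself across the WT libraries, and the remaining neighbours were farther apart than that. Gja1 and Gjb6 thus ranked highest in both WT libraries, but the order of Gjb6 and Gja4 was not firm. The values per kilobase used a length of 1759 bases for Gjb6, while its exons in GENCODE hold 2105. The cells that the reads came from were not separated in this ranking.

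**Figure D1:**
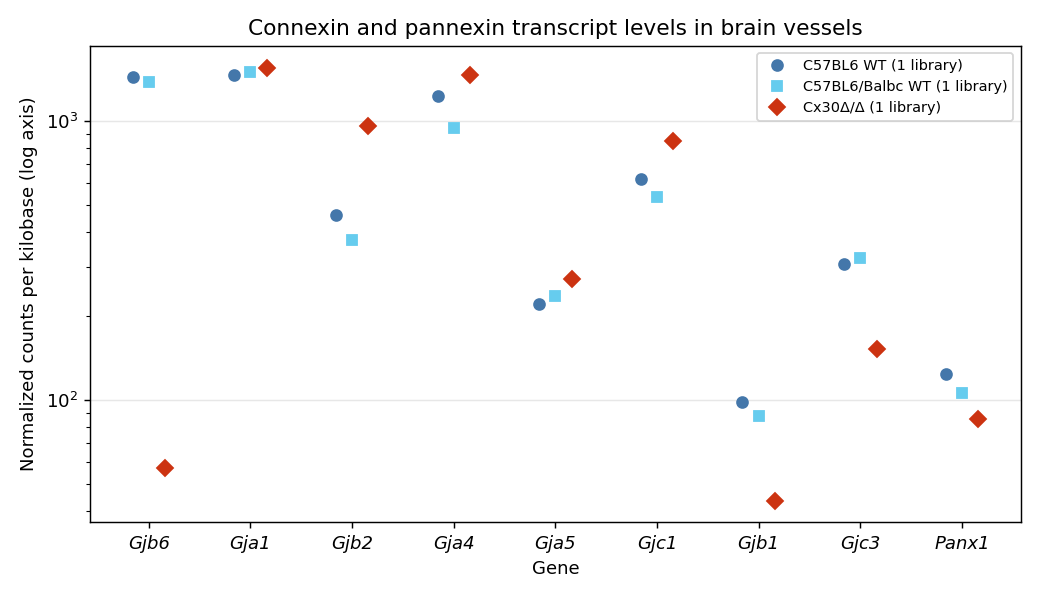
Normalized counts per kilobase of transcript (log axis) of the 9 genes, with 1 symbol for each of the 3 libraries. Gjb6 is at 57.3 in the Cx30Δ/Δ library against 1380 and 1440 in WT, and Gjb2 is the gene with the clearest gap in the other direction, at 956 against 373 and 460.

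In the Cx30Δ/Δ library the order was Gja1, Gja4, Gjb2, Gjc1, Gja5, Gjc3, Panx1, Gjb6 and Gjb1. Gjb6 moved from the second to the eighth place and Gjb2 from the fifth to the third. As a share of the summed levels per kilobase over all connexin and pannexin genes with a transcript in the files, Gjb6 made up 23.3% and 24.6% in the WT libraries and 1.0% in Cx30Δ/Δ. The share of Gjb2 was 7.4% and 6.6% in WT and 17.2% in Cx30Δ/Δ. The summed level was 6190 normalized counts per kilobase in vessels of C57BL6 WT mice, 5620 with the C57BL6/Balbc background and 5540 in Cx30Δ/Δ, and without Gjb6 it was 4750, 4240 and 5490.

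**Figure D2:**
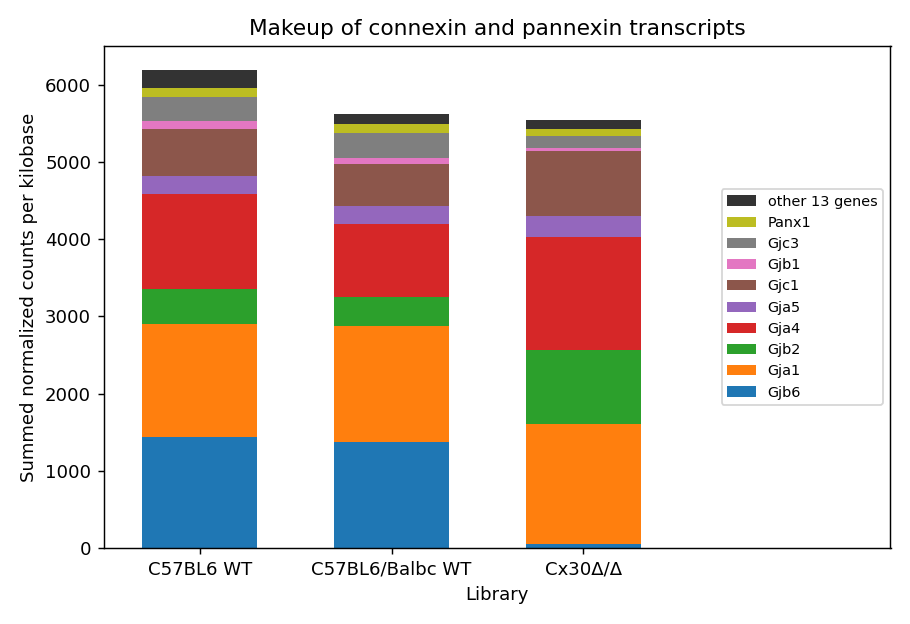
Summed normalized counts per kilobase of the connexin and pannexin transcripts in each library, stacked by gene. The bar of Cx30Δ/Δ (5540) is close in height to that of C57BL6/Balbc WT (5620), with Gjb6 nearly gone and larger parts for Gjb2, Gja4 and Gjc1, among others.

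Of the 9 genes, 3 were past 2-fold in Cx30Δ/Δ against C57BL6 WT (1 higher, 2 lower), where 2.68% of 14776 genes were (1.42% higher, 1.26% lower). Against C57BL6/Balbc WT, 4 were past it (1 higher, 3 lower), where 8.69% of 14891 genes were (3.96% higher, 4.73% lower). Gjb6, Gjb2 and Gjb1 were past it the same way in both comparisons, as were 1.42% of 14688 genes (0.742% higher, 0.681% lower). Gjb6 is the deleted gene, so its place in each of these tallies follows from the genotype. None of the 9 was past 2-fold between the WT libraries, where 3.43% of 14791 genes were. Their log2 ratios between the WT libraries ran from -0.38 (Gja4) to 0.09 (Gja5). Of all genes, 17.1% had a lower ratio than Gja4 and 59.8% a lower ratio than Gja5. The median log2 ratio of the 9 genes was 0.09 relative to C57BL6 WT and 0.04 relative to C57BL6/Balbc WT, beside 0.00 for all genes in each. All 9 values of Cx30Δ/Δ lay outside the range of the WT libraries, 5 above and 4 below, but so did those of 73.7% of all genes.

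**Figure D3:**
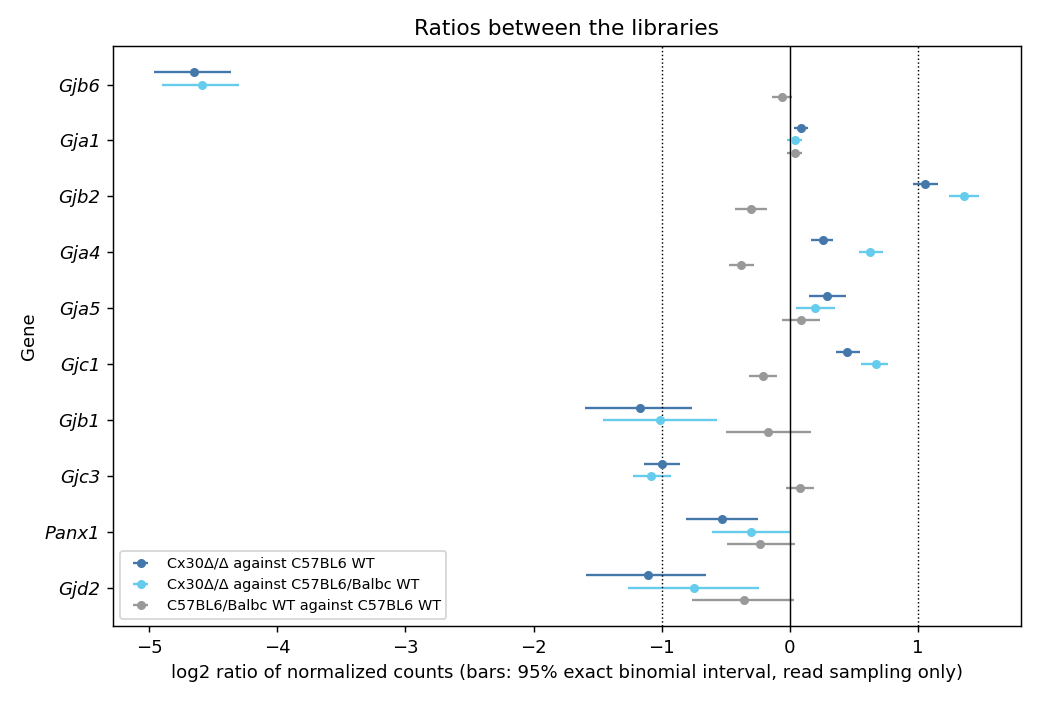
log2 ratios of normalized counts for the 9 genes and Gjd2 in the 3 pairs of libraries, with 95% exact binomial intervals of read sampling as bars. The ratios of Gjb6 lie at -4.65 and -4.59 in the comparisons with WT and at -0.06 between the WT libraries.

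Gjb6 (ENSMUSG00000040055) lies on the minus strand of chromosome 14, from 57123303 to 57133611 in GRCm38, with 3 exons of which 1 holds the coding sequence of 783 bases. Its transcript had 2531.4 normalized counts in vessels of C57BL6 WT mice, 2425.9 with the C57BL6/Balbc background and 100.7 in Cx30Δ/Δ. The WT libraries were nearly level and the Cx30Δ/Δ library was far below both. The Cx30Δ/Δ library was 25.1-fold lower than C57BL6 WT (log2 ratio -4.65, interval -4.96 to -4.36) and 24.1-fold lower than C57BL6/Balbc WT (-4.59, -4.90 to -4.30). The ratio between the WT libraries was -0.06 (-0.14 to 0.02). In edgeR's quasi-likelihood test of the Cx30Δ/Δ library against both WT libraries as 1 group, Gjb6 was the only one of the 9 genes past an adjusted p of 0.05 (adjusted p = 5.28e-07), where 0.0512% of 17576 genes were. That test takes its error from how far the WT libraries lie from each other, a distance that includes their different backgrounds. An unadjusted p under 0.05 was reached by 4 of the 9 genes (Gjb6, Gjb2, Gjb1 and Gjc3) and by 8.69% of all genes tested. The 96 raw counts left in Cx30Δ/Δ were spread over 1401 of the 1759 bases of the transcript, or 79.6%. Among 216 transcripts of like length and count in that library (within 10% and 20%) the median coverage was 76.1%, with quartiles of 61.0% and 83.5%. The remaining Gjb6 reads were thus not gathered in a small stretch. Fewer bases lacked reads than the coding sequence holds (783), so part of it carried reads if this transcript includes it whole. Which bases the deletion removes is not given in the sources used here, so these reads do not check its extent. Per the study's methods the libraries shared a sequencing lane, and the source of these reads was not tested.

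Gja1 encodes Cx43, the partner of Cx30 in astrocyte endfeet, and is also made by mural and endothelial cells. Its transcript (ENSMUSG00000050953, chromosome 10, plus strand, 56377330 to 56402513, coding sequence of 1146 bases in 1 exon) had 4486.6 normalized counts in vessels of C57BL6 WT mice, 4618.6 with the C57BL6/Balbc background and 4759.5 in Cx30Δ/Δ. The 3 libraries were within a narrow band, with Cx30Δ/Δ slightly above both WT. Its log2 ratios were 0.09 (0.03 to 0.14) and 0.04 (-0.02 to 0.10), beside 0.04 (-0.02 to 0.10) between the WT libraries, and edgeR's quasi-likelihood test gave an adjusted p of 0.987. The read sampling intervals leave room for a change of at most 0.14 on the log2 scale in these libraries, but the spread between mice was not measured.

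The 8 astrocyte markers had a median log2 ratio of -0.24 relative to C57BL6 WT and -0.20 relative to C57BL6/Balbc WT, and 5 of 8 were lower in both comparisons, where 36.6% of all genes were. Aqp4, the endfoot water channel, had log2 ratios of 0.11 and -0.42, and Slc1a2, the main glutamate transporter, of -0.42 and -0.46. Per 1000 summed counts of the astrocyte markers, Gjb6 had 58.8, 57.7 and 2.93 normalized counts. The ratio of Gjb6 thus remained below -4 on this scale (-4.33 and -4.30). Gja1 had 104, 110 and 139 per 1000 astrocyte counts, with log2 ratios of 0.41 and 0.33. Slc1a2 alone made up 47.8% to 53.6% of the astrocyte sum. Without it, a choice made after seeing the data, the ratios of Gja1 were 0.32 and 0.16, beside 0.16 between the WT libraries. Those of Gjb6 were then -4.42 and -4.47.

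Gjb2 encodes Cx26 and is the next connexin gene beside Gjb6, on the same strand of chromosome 14 (ENSMUSG00000046352, 57098600 to 57104702, 2 exons, coding sequence of 678 bases in 1 exon). Only 18600 bases lie between the genes. On the other side of Gjb2, 40499 bases away, lies Gja3, a lens connexin gene, which had 2 raw counts in vessels of C57BL6 WT mice, 3 with the C57BL6/Balbc background and 3 in Cx30Δ/Δ. Gjb2 was higher in Cx30Δ/Δ than in both WT libraries. Whether this has to do with its place beside the deleted Gjb6 was not tested. The 250 bases in front of the start of Gjb6 and of Gjb2 are shown because the genes are neighbours. They are RefSeq windows of GRCm38.p6, minus strand, at chr14:57133612-57133861 and chr14:57104703-57104952, written in the direction of transcription with capitals at the GC box letters GGGCGG or their reverse complement CCGCCC.
Gjb6: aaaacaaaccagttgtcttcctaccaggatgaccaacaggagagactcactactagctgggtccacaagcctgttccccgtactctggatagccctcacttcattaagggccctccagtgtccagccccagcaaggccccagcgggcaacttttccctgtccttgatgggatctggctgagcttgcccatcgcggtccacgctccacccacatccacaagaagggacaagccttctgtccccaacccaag
Gjb2: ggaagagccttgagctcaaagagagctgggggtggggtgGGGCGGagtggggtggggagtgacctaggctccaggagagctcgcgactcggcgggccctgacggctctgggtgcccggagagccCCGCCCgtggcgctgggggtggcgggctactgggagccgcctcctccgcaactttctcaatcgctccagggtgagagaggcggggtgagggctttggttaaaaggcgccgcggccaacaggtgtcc
The window of Gjb2 was 69.2% GC with 18 CpG and held 2 matches to GGGCGG on either strand. That of Gjb6 was 56.8% GC with 5 CpG and held none. Of 32851 RefSeq windows of the same 250 bases, 32.7% held the letters at least once and the median GC was 52.4%. A match describes the sequence and is not a measured binding site.

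The Gjb2 transcript had 1099.4 normalized counts in vessels of C57BL6 WT mice, 891.1 with the C57BL6/Balbc background and 2285.9 in Cx30Δ/Δ. Both WT libraries were low and the Cx30Δ/Δ library was above them by more than the WT libraries differed. It was 2.08-fold higher than C57BL6 WT (log2 ratio 1.06, 0.96 to 1.16) and 2.57-fold higher than C57BL6/Balbc WT (1.36, 1.24 to 1.48), while the WT libraries differed by -0.30 (-0.43 to -0.18). Of all genes, 98.9% and 98.7% had a lower ratio. In edgeR's quasi-likelihood test its log2 fold change was 1.20 with an adjusted p of 0.161, which did not pass 0.05. Without the filter on low counts the adjusted p from edgeR was 0.00987, and over the other alternatives it ranged from 0.0575 (longest transcript) to 0.199 (DESeq2).

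Gjb2 is also a gene of leptomeningeal fibroblasts, the cells of the thin membranes over the brain, which follow larger vessels. All 8 markers of these cells were higher in Cx30Δ/Δ than in both WT libraries, by a median of 0.35 and 0.49, where 37.1% of all genes were higher in both. Slc22a6, an organic anion transporter, had ratios of 0.54 and 0.34, and Slc6a13, a GABA transporter, of 0.20 and 0.76. None of the 8 was past 2-fold in either comparison, and their summed normalized counts were 14330 in vessels of C57BL6 WT mice, 12830 with the C57BL6/Balbc background and 18440 in Cx30Δ/Δ. Per 1000 counts of these markers Gjb2 had 76.7, 69.4 and 124 normalized counts, and the ratios on this scale were 0.69 and 0.84, smaller than before the division. The part of these cells in the difference of Gjb2 was not tested.

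**Figure D4:**
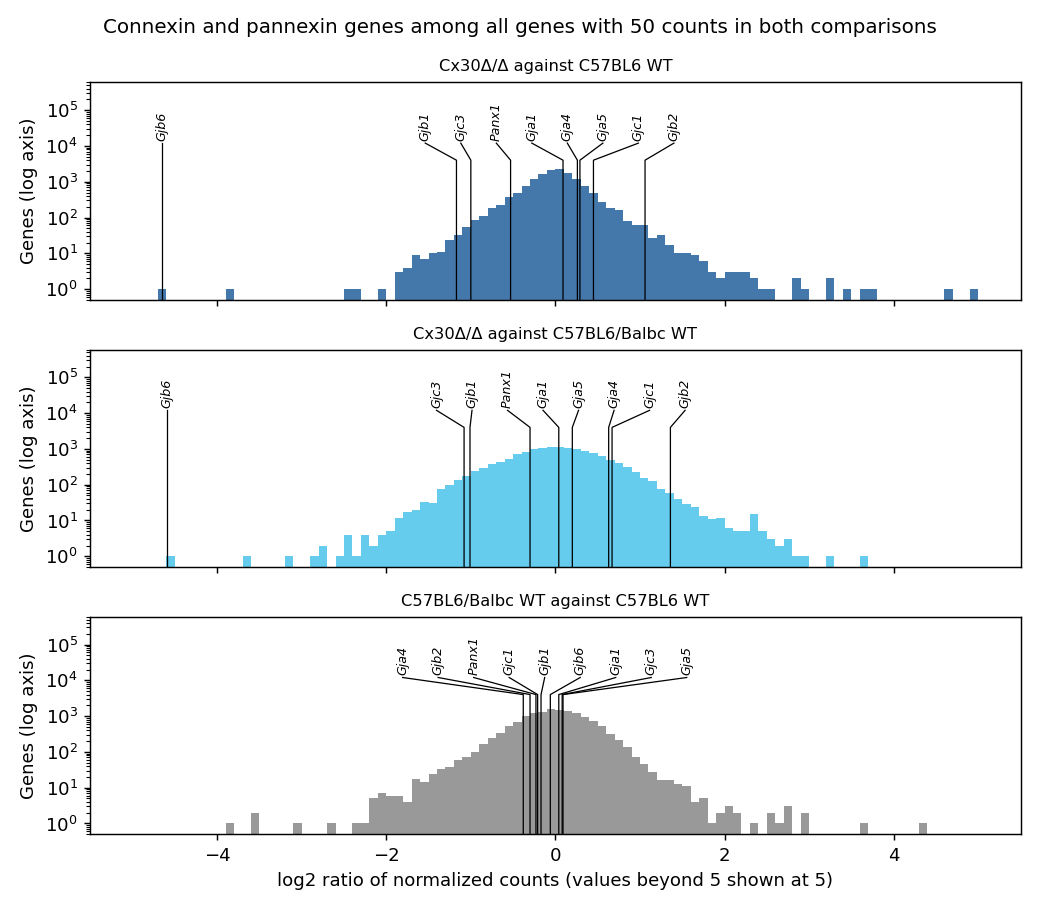
Number of genes (log axis) by log2 ratio in the 3 pairs of libraries, over the 14688 genes with at least 50 normalized counts in both comparisons with WT, with lines at the 9 genes. Gjb6 stands at the lower edge of both comparisons with WT (-4.65 and -4.59) and Gjb2 toward the upper side (1.06 and 1.36), while all 9 lie between -0.38 and 0.09 for the WT libraries.

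Gja4 and Gja5 encode Cx37 and Cx40, which couple arterial endothelial cells to each other and to smooth muscle. Gja4 (ENSMUSG00000050234, chromosome 4, minus strand, 127311421 to 127314039) had 2066.9 normalized counts in vessels of C57BL6 WT mice, 1588.8 with the C57BL6/Balbc background and 2467.4 in Cx30Δ/Δ. The Cx30Δ/Δ library was the highest, with log2 ratios of 0.26 (0.17 to 0.34) and 0.63 (0.54 to 0.73), but the WT libraries themselves were 0.38 apart, C57BL6/Balbc being the lower. Gja5 (ENSMUSG00000057123, chromosome 3, plus strand, 96904693 to 97077416) had 688.1, 734.5 and 842.4 normalized counts. Its ratios were 0.29 (0.15 to 0.44) and 0.20 (0.05 to 0.35), and 0.09 (-0.06 to 0.24) between the WT libraries. The adjusted p-values of edgeR's quasi-likelihood test were 0.767 for Gja4 and 0.91 for Gja5.

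All 8 endothelial markers, too, were higher in Cx30Δ/Δ than in both WT libraries, where 37.1% of all genes were. Their median was 0.22 relative to C57BL6 WT and 1.04 relative to C57BL6/Balbc WT. Cldn5, a tight junction protein, had 0.17 and 1.26, and Pecam1, a junctional adhesion protein, had 0.14 and 0.83. Of 8 markers of arterial endothelium 7 were higher in both, beside the same 37.1% of all genes, with medians of 0.29 and 0.82. Bmx, an arterial tyrosine kinase, had 0.54 and 0.88, and Efnb2, the arterial ephrin ligand, had 0.17 and 0.34. Per 1000 counts of the arterial markers Gja4 had 79.8, 85.6 and 77.2 normalized counts, with log2 ratios of -0.05 and -0.15, and Gja5 had 26.6, 39.6 and 26.4, with -0.01 and -0.59. Relative to the arterial markers neither gene was thus above both WT libraries in Cx30Δ/Δ, and Gja5 was highest in C57BL6/Balbc WT.

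Gjc1 encodes Cx45, a connexin of smooth muscle cells and pericytes. It is on the minus strand of chromosome 11 (ENSMUSG00000034520, 102799579 to 102819700) and had 1430.3 normalized counts in vessels of C57BL6 WT mice, 1235.7 with the C57BL6/Balbc background and 1959.6 in Cx30Δ/Δ. The Cx30Δ/Δ library was above both WT libraries, with log2 ratios of 0.45 (0.36 to 0.55) and 0.67 (0.56 to 0.77) against -0.21 (-0.32 to -0.10) between WT. The gene stayed under 2-fold, and edgeR's quasi-likelihood test gave 0.56 with an adjusted p of 0.598. Its 5 transcripts, which share reads, had ratios from 0.32 to 0.56 relative to C57BL6 WT and from 0.41 to 0.67 relative to C57BL6/Balbc WT.

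The 6 smooth muscle markers had a median of 0.34 relative to C57BL6 WT and -0.12 relative to C57BL6/Balbc WT, with 0.28 and -0.28 for Acta2, smooth muscle actin, and 0.60 and -0.14 for Myh11, smooth muscle myosin. The 6 pericyte markers had medians of -0.04 and 0.59, with 0.07 and 0.76 for Pdgfrb, the receptor for pericyte recruitment, and -0.43 and 0.54 for Kcnj8, a potassium channel subunit. In each list 2 of 6 genes were higher in both comparisons, where 37.1% of all genes were. Per 1000 smooth muscle counts Gjc1 had 35.6, 20.8 and 36.2 normalized counts, and per 1000 pericyte counts 22.4, 30.8 and 28.7. On neither scale was Cx30Δ/Δ above both WT libraries by more than the WT libraries differed, nor was it without Rgs5, the most abundant pericyte marker (log2 ratios of 0.53 and 0.08, and 0.45 between WT).

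Gjb1 and Gjc3 encode Cx32 and Cx29, which sit in myelin sheaths and in the oligodendrocyte membrane. Gjb1 (ENSMUSG00000047797, chromosome X, plus strand, 101376378 to 101385629, coding sequence of 849 bases) had 156.3 normalized counts in vessels of C57BL6 WT mice, 139.3 with the C57BL6/Balbc background and 69.2 in Cx30Δ/Δ. The WT libraries were close and the Cx30Δ/Δ library was below both, by a log2 ratio of -1.17 (-1.60 to -0.76) and -1.01 (-1.46 to -0.57). These wide intervals reflect the 179, 129 and 66 raw counts behind the gene. Gjc3 (ENSMUSG00000056966, chromosome 5, minus strand, 137953461 to 137963098, coding sequence of 807 bases in 2 of 3 exons) had 1226.9, 1296.1 and 613.7 normalized counts. Again only the Cx30Δ/Δ library was low, at -0.9994 (-1.14 to -0.86) and -1.0786 (-1.22 to -0.93). Gjc3 therefore missed the threshold against C57BL6 WT by less than 0.001, and Gjb1 passed it against C57BL6/Balbc WT by less than 0.01. Under TMM or total count scaling, or with the counts of all transcripts of a gene summed, Gjc3 passed in both comparisons and Gjb1 did not. The adjusted p of edgeR's quasi-likelihood test was 0.44 for Gjb1 and 0.231 for Gjc3.

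The 250 bases in front of the starts of Gjb1 and Gjc3 are shown because both oligodendrocyte connexins were lower in Cx30Δ/Δ by nearly the same ratio. They are RefSeq windows of GRCm38.p6 at chrX:101383482-101383731 on the plus strand, the start nearest to the counted Gjb1 transcript out of 4, and at chr5:137963099-137963348 on the minus strand. Capitals mark the letters ACAAAG, a core recognized by Sox factors, which include the oligodendrocyte regulator Sox10, or its reverse complement CTTTGT.
Gjb1: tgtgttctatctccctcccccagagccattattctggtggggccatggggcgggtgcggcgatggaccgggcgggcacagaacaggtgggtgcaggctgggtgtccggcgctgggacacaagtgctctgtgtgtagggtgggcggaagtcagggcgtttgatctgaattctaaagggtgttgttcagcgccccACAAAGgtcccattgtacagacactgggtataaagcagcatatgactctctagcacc
Gjc3: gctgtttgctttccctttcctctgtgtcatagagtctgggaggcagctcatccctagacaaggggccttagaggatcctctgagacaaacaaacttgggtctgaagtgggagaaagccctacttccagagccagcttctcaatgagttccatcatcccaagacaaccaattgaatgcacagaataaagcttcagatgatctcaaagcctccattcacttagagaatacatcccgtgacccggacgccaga
The Gjb1 window held 1 match to ACAAAG and the Gjc3 window none, while 16.5% of 32851 windows held one on either strand. The Gjb1 window also held 3 matches to GGGCGG and 1 to TATAAA (present in 12.4% of windows), and the Gjc3 window held 1 match to CCAAT (33.8% of windows). The pair shared none of the 4 motifs searched, which says only that these letters are not in both windows.

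Of the other connexin and pannexin genes, 14 were listed, 13 had a transcript in the files and 2, among them Gjd2, reached 50 normalized counts in any library. The remaining 11 had at most 7 raw counts in a library. Gjd2, the gene of the neuronal connexin Cx36, had 122.2, 95.1 and 56.6 normalized counts, with ratios of -1.11 (-1.59 to -0.65) and -0.75 (-1.26 to -0.24). It shares 57 exon bases with the antisense gene A530058N18Rik, whose reads cannot be separated in libraries that do not mark strand. The adjusted p of edgeR's quasi-likelihood test was 0.598 for Gjd2.

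Of 8 oligodendrocyte markers 6 were lower in both comparisons, where 36.6% of all genes were, and none was past 2-fold in both. The medians of the 8 were -0.52 relative to C57BL6 WT and -0.38 relative to C57BL6/Balbc WT. Mbp, a major myelin protein gene, had -0.24 and 0.07. The summed normalized counts of the list were 53320 in vessels of C57BL6 WT mice, 47260 with the C57BL6/Balbc background and 42120 in Cx30Δ/Δ. Per 1000 of these counts Gjb1 had 2.93, 2.95 and 1.64 normalized counts and Gjc3 23.0, 27.4 and 14.6, with log2 ratios of -0.83 and -0.84 for Gjb1 and of -0.66 and -0.91 for Gjc3. Mbp alone made up 50.7% to 59.8% of the sum. Without it, a choice made after seeing the data, these ratios were nearer to 0, at -0.70 and -0.55 for Gjb1 and at -0.52 and -0.62 for Gjc3. Mag (-0.99 and -0.63), Mog (-0.97 and -0.59) and Opalin (-1.03 and -0.32), named after their values were seen, were the markers nearest to Gjb1 and Gjc3 relative to C57BL6 WT. Relative to C57BL6/Balbc WT, 6 of the 8 markers were lower and 2 were higher, Mobp (0.16) and Mbp (0.07). Neuronal markers were also lower, with 7 of 8 below both WT libraries, where 36.6% of all genes were. Their medians were -0.53 and -0.79. Snap25 and Syt1, both of the transmitter release machinery, had -0.18 and -0.76, and -0.94 and -0.92. The part of non-vascular cells in the ratios of Gjb1, Gjc3 and Gjd2 was not tested.

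**Figure D5:**
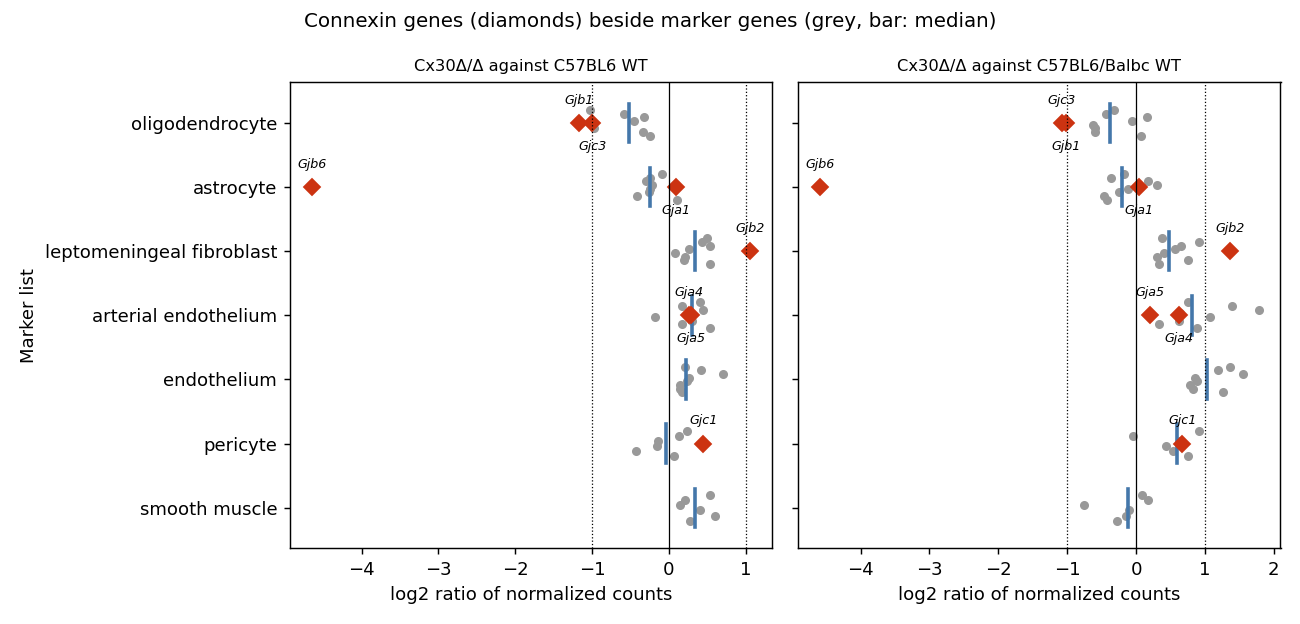
log2 ratios of the connexin genes (diamonds) beside the markers of the cell type each is known from (grey points, bar at the median), for Cx30Δ/Δ against each WT library. Gjb6 stands apart from the astrocyte markers (medians -0.24 and -0.20), and Gjb1 and Gjc3 lie below the oligodendrocyte medians of -0.52 and -0.38, while Gja4 and Gja5 lie among or below the arterial markers.

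Panx1 forms channels that release ATP from many cell types, endothelium and smooth muscle included. Its only transcript in the files (ENSMUSG00000031934, chromosome 9, minus strand, 15002128 to 15045478) is annotated in GENCODE as subject to nonsense-mediated decay and had a length of 2055 bases in the files against 1854 in the annotation. It had 254.1 normalized counts in vessels of C57BL6 WT mice, 217.1 with the C57BL6/Balbc background and 176.2 in Cx30Δ/Δ. The Cx30Δ/Δ library was the lowest, with ratios of -0.53 (-0.81 to -0.25) and -0.30 (-0.61 to 0.00), while the WT libraries differed by -0.23 (-0.49 to 0.04). The ratio to C57BL6/Balbc WT was thus close to the difference between the WT libraries, and edgeR's quasi-likelihood test gave an adjusted p of 0.863.

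Of 21 genes known to bind, modify or act with connexin and pannexin channels, 20 had a transcript, 19 passed the count minimum, 9 were higher and 10 lower against each WT library, and none was past 2-fold in any pair of libraries. Their median log2 ratio was -0.02 relative to C57BL6 WT and -0.07 relative to C57BL6/Balbc WT. Tjp1, encoding the scaffold ZO-1 that anchors connexins at the junction edge, had 10279.5, 8835.3 and 12483.7 normalized counts and ratios of 0.28 and 0.50.

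The genes whose ratios were nearest to those of the 3 connexin genes past 2-fold in both comparisons were sought among 12005 genes with at least 200 normalized counts in a library, by Euclidean distance over the log2 ratios to both WT libraries (pseudocount 1). The search spans 3 libraries only. Gjb6 had no close neighbour: the nearest, A830012C17Rik, was 3.745 away with ratios of -1.51 and -2.52, followed by Ptk2b at 3.824 and Fosb at 4.039. Gjb2 was nearest to Dnah3 (distance 0.015, ratios 1.06 and 1.37), then to Lrrc18 (0.041) and Gm867 (0.054). Dnah3 encodes an axonemal dynein heavy chain. Gjb1 was nearest to Fa2h, a fatty acid hydroxylase that makes myelin lipids (distance 0.018, ratios -1.16 and -1.02), then to Slitrk1 (0.054), a neuronal membrane protein, and Sstr3 (0.066), a somatostatin receptor.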

How the data were processed

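The 9 genes, the marker lists and the tests were chosen with earlier results of these data known. Per the labels and the study's methods, the authors removed low-quality reads, aligned the rest to mm10 with Bowtie, discarded reads matching several places and counted reads overlapping the exons of each transcript; CASAVA 1.8.2 stands in the submitters' processing notes. The deposited values of each transcript are its raw count, its length, the number of bases not covered and a fraction. In that fraction the authors divided the count by a library total. The 82813 transcripts share reads within a gene. Gene names and coordinates came from GENCODE M21 (GRCm38) through the transcript identifiers, which matched 83.8% of rows; rows without a name held 15.9% to 16.6% of counts. Positions in the files were not used, since only 1.6% of them shared the start in that annotation.

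Each gene was represented by the transcript with the most counts, giving 24164505 counts in vessels of C57BL6 WT mice, 20383010 with the C57BL6/Balbc background and 20143253 in Cx30Δ/Δ. Scaling used median-of-ratios size factors (1.1452, 0.9258 and 0.9532). A gene was tested in a pair of libraries if it had 50 normalized counts in either. Intervals are exact binomial intervals (95%, scipy 1.17.1) and cover counting error only. edgeR 4.0.16 (filterByExpr, TMM, glmQLFit and glmQLFTest, Benjamini-Hochberg over all genes) compared Cx30Δ/Δ with both WT libraries as 1 group. DESeq2 1.42.0, other scalings, transcript choices, filters and fold thresholds were alternatives. Marker sums were also taken without the most abundant gene of each list, chosen after seeing the data. The edgeR step was checked on simulated data.

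All 9 members are named. Of the other connexin and pannexin genes those with 50 normalized counts in any library are named, with Gja3 as the neighbour of Gjb2. Of each list the first 2 genes and any gene past 2-fold in both comparisons are named, and for each member past 2-fold in both, the 3 nearest genes. Some genes these rules would name are not reported here. Promoter windows came from RefSeq (GRCm38.p6) and matched 8 of the 9 genes.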

Additional observations from a re-analysis of the deposited data

How the results depend on the processing

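No ratio of the 9 genes changed sign in a called value under any alternative run. Of 162 ratios under alternatives 159 stayed within their read sampling interval, and the largest shift was 0.06 under other scalings and 0.13 under other transcripts or a pseudocount. Under each other scaling, transcript choice or count minimum 3 members were past 2-fold in both comparisons, but not the same ones. They were Gjb6, Gjb2 and Gjc3 under TMM, total count scaling and summed transcripts, and Gjb6, Gjb2 and Gjb1 under the others. Over the settings Gjb1 ranged from -1.1780 to -1.1541 against C57BL6 WT and from -1.0089 to -0.9498 against C57BL6/Balbc WT, and Gjc3 from -1.0027 to -0.9788 and from -1.0786 to -1.0195. A threshold of 1.5-fold gave 4 members in both, adding Gjc3. A threshold of 4-fold left 1 member (Gjb6) in each comparison and in both, and 7 of all genes. Over all genes, 209 were past 2-fold in both, against 1954 with no count minimum, 126 with 50 normalized counts in every library and 1104 at 1.5-fold. In edgeR's quasi-likelihood test 1 member and 9 genes were called. Without the filter on low counts 2 members (Gjb6 and Gjb2) and 135 genes were called, with summed transcripts 14 genes, with the longest transcript 22 and with DESeq2 7; the cause was not tested. No paired analysis was possible because each group has 1 library. For the same reason no library could be left out of a group, and the spread between mice is unknown.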

Other observations

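Markers of blood cells and of other cells outside the vessel wall also differed between the libraries, and their part in the connexin ratios was not tested. Of 5 red blood cell genes 4 passed the count minimum. All 4 were higher in Cx30Δ/Δ than in both WT libraries, where 37.1% of all genes were. Hbb-bt (1.28 and 2.39), Hba-a1 (1.70 and 2.05) and Alas2 were at least 2-fold higher in both, as were 0.742% of all genes. The summed normalized counts of the list were 2060 in vessels of C57BL6 WT mice, 1003 with the C57BL6/Balbc background and 4752 in Cx30Δ/Δ. The 6 markers of ependyma and choroid plexus summed to 147700, 59160 and 80550 (10010, 6234 and 9182 without Ttr), with ratios of -0.95 and 0.43 for Ttr, the transthyretin of choroid plexus, and of 0.66 and 0.51 for Foxj1, a regulator of motile cilia. The 6 microglial markers summed to 5241, 3617 and 4440, with 0.10 and -0.44 for Aif1 and -0.22 and 0.36 for Csf1r.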
